A study of Mus musculus with 6 samples.

Results

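Lateral amygdala RNA from mice given a small interfering RNA (siRNA) against Baf53b was compared with control lateral amygdala, gene by gene. The 4 libraries compared, 2 labelled Baf53b siRNA and 2 labelled control, are part of a series of 6; the other 2 are labelled scrambled siRNA, a siRNA of shuffled sequence. All animals were male mice of a 129xC57BL/6 hybrid strain aged 2 to 3 months, and the design text places the siRNA injection 1 day after training. The protocol speaks of 4 dissected mice, and the labels do not say whether a library pools animals, how long after the injection the tissue was taken, or what the control mice received. An effect of injecting RNA and an effect of the siRNA's sequence therefore cannot be told apart in this comparison, and p-values measure the spread between these libraries. Genes were taken where the mean over the 4 libraries was at least 1 FPKM (fragments counted relative to the length of the transcript and to the mapped fragments of the library). This kept 15010 of 50383 genes, of which 14674 were tested, 332 were small RNA genes and 4 had a failed estimate.

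BAF53b, encoded by Actl6b, is an actin-related subunit of the BAF chromatin remodelling complex that replaces its paralog Actl6a when neurons mature. The lateral amygdala stores associations between a cue and an aversive event, and chromatin remodelling in its neurons has been linked to the consolidation of such memories. Brain tissue also holds microglia, astrocytes, oligodendrocytes and vessels, and these react to injury, foreign RNA and interferons with gene programmes for antigen presentation, phagocytosis and gliosis.

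The gene Actl6b (ENSMUSG00000029712.14, on the plus strand of mm10 chromosome 5 from 137553517 to 137569582) was at 42.9 and 44.1 FPKM in the controls and at 42.8 and 39.6 FPKM with Baf53b siRNA. Both of the latter lay below both controls, by a log2 difference of -0.08 (SE 0.12, 95% interval -0.37 to 0.22). That difference did not pass (adjusted p = 1 in limma; two-sided exact permutation p = 0.33, the smallest that 2 libraries against 2 can give), so a fall of the targeted transcript was not detectable. Directions below refer to the libraries as labelled.

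The deposited intervals imply 8.92 M and 10.3 M fragments behind the control libraries and 7.65 M and 8.51 M behind those labelled Baf53b siRNA. This estimate reads the whole width of the intervals as counting error and is too low where the width has other sources. Mitochondrial genes took 19.4% and 29.5% of all FPKM in control and 19.3% and 22.8% in Baf53b siRNA. Synthetic spike-in RNA took 0.0191% and 0.0195% in control against 0.755% and 0.128% in Baf53b siRNA. Neuronal markers were abundant in every dissection: Snap25, a synaptic membrane fusion protein, stood between 735 and 831 FPKM in the 4 libraries, the glutamate transporter gene Slc17a7 between 288 and 394 FPKM, and the GABA-synthesizing enzyme gene Gad1 between 88.5 and 101 FPKM.

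Genes of antigen presentation, interferon responses, phagocytes and reactive astrocytes were among those higher in the libraries labelled Baf53b siRNA, while the pan-neuronal, excitatory and inhibitory neuron lists held 0 genes that passed the test. Of 14674 genes tested, 189 rose (1.29%) and 0 fell (0.0%) at an adjusted p under 0.05 in limma. At an unadjusted p under 0.05 there were 709 higher (4.83%) and 41 lower (0.279%). Differences are given as log2(FPKM + 1), a scale on which low genes change by less than their FPKM do. Over all genes tested the median was 0.04, with quartiles of -0.05 and 0.15. For genes listed at 0 in both controls the log2 value depends on the 1 FPKM added and is no fold. The genes that rose did so by between 0.80 and 6.40, with a median of 1.49. In 85 of them the control mean was under 1 FPKM, so these entered the test through their level in the libraries labelled Baf53b siRNA. Their counts describe the data without adding support, in the lists below also where this is not repeated. The count was 79 without control replicate 1 (69 higher, 10 lower), 76 without control replicate 2 (69 higher, 7 lower), 49 without Baf53b siRNA replicate 1 and 98 without Baf53b siRNA replicate 2 (all higher in both). Counts given below for leaving out 1 library refer, in this order, to control replicate 1, control replicate 2, Baf53b siRNA replicate 1 and Baf53b siRNA replicate 2. Of the 189 genes, 14 were called in each of the 17 alternative settings: Cd74, H2-Aa, H2-Ab1, C920009B18Rik, Cd52, H2-D1, C3, Gfap, C4b, B2m, Mpeg1, Ctss, C1qc and Tyrobp. The deposited bounds of C920009B18Rik with Baf53b siRNA reach down to 0, so its level is almost undetermined. Each of the other genes that rose failed to pass, or fell below the filter, in at least 1 of these settings, and 0 of the 189 had a negative sign in any of them.

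**Figure D1:**
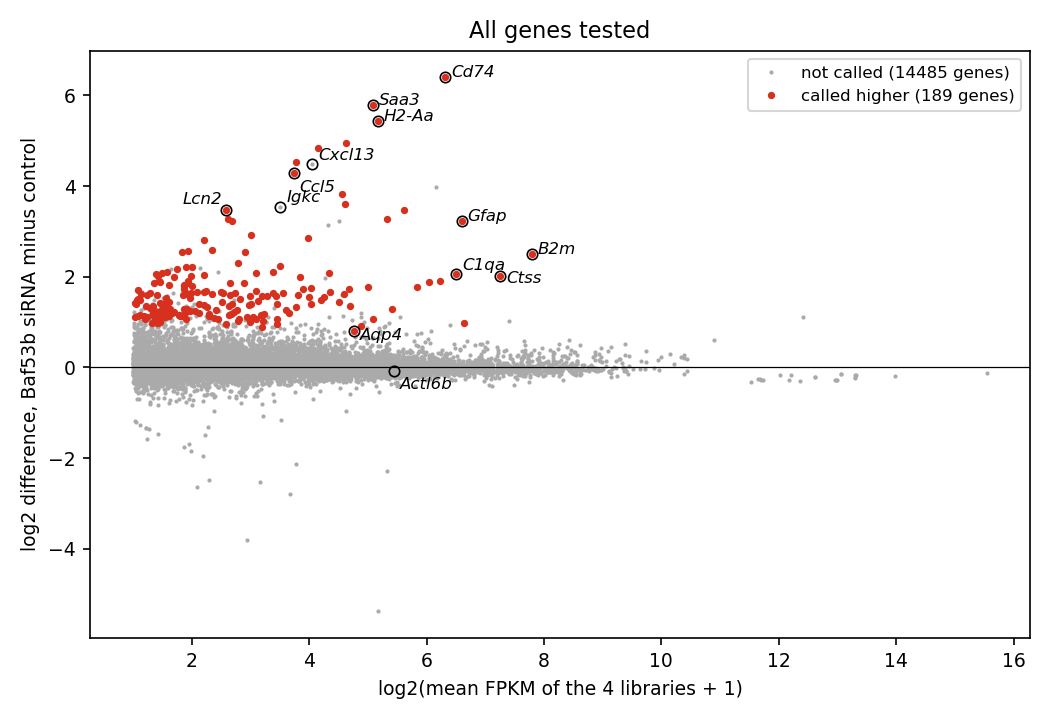
Log2 difference between Baf53b siRNA and control (vertical axis) against the log2 mean FPKM of the 4 libraries plus 1 (horizontal axis) for 14674 genes. The 189 genes that rose (red) span 0.80 to 6.40 and are mostly of low to middle level, while Actl6b lies at -0.08.

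Antigen presentation is described first, since Cd74 had the largest difference of all genes tested. Class II molecules of the major histocompatibility complex (MHC) display peptides taken up from outside the cell, on microglia, macrophages, dendritic cells and B cells. Cd74, the invariant chain that escorts class II molecules, was at 1.18 and 0.416 FPKM in the controls and at 211 and 102 FPKM with Baf53b siRNA, and rose by 6.40 (SE 0.36, limma adjusted p = 0.00129). The scrambled siRNA libraries held 9.74 and 7.37 FPKM of Cd74, a log2 difference of 3.96 from Baf53b siRNA (limma adjusted p = 0.0270). This comparison shares the Baf53b siRNA libraries with the main one. With the same limma threshold it called 32 of 14674 genes (0.218%) higher than scrambled siRNA and 0 (0.0%) lower, where 48 (0.327%) had an unadjusted p under 0.05. The alpha chain gene H2-Aa (ENSMUSG00000036594.14, chromosome 17, 34282744 to 34287827, minus strand) went from 0.660 and 0.377 FPKM to 95.9 and 43.4 FPKM, a rise of 5.44 (SE 0.39, limma adjusted p = 0.00294). The beta chain genes H2-Eb1 (4.94) and H2-Ab1 (4.83) rose, as did the non-classical chains H2-Oa and H2-DMb1, which govern peptide loading (1.81 and 1.53). In each of these 6 genes, as in all 189 that rose, the groups did not overlap. Both Baf53b siRNA libraries lay above both controls in 16.8% of all genes tested. Within Baf53b siRNA, replicate 1 lay above replicate 2 in each of the 6. Of 11 listed class II genes 8 were tested, 6 rose, and the median difference was 3.32. In all 6 that rose the control mean was under 1 FPKM. They entered the test through the libraries labelled Baf53b siRNA, so this count and median describe the data without adding support. Leaving out 1 library gave 4, 4, 4 and 6 genes that rose. H2-DMa (0.49) and H2-DMb2 (0.79) did not pass, and 3 were below the filter, among them the class II transactivator gene Ciita at 0.0735 and 0.0220 FPKM in the controls and 0.609 and 0.548 FPKM with Baf53b siRNA. Summed over the list, the level was 15.7 and 10.1 FPKM in the controls, 39.4 and 26.3 FPKM with scrambled siRNA and 445 and 218 FPKM with Baf53b siRNA. In bulk tissue more cells of a type and more RNA per cell cannot be told apart, here and in every list that follows.

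MHC class I molecules display peptides from inside the cell and can be made by nearly all cell types. B2m, the light chain they share, started from a high level of 56.9 and 74.7 FPKM in the controls and reached 425 and 326 FPKM, a rise of 2.49 (SE 0.19, limma adjusted p = 0.00403). The heavy chain genes H2-D1 (7.48 and 6.43 FPKM in the controls, 104 and 73.9 FPKM with Baf53b siRNA) and H2-K1 (7.38 and 5.27 against 90.4 and 52.6 FPKM) rose by 3.48 and 3.27. H2-Q7, H2-Q4, H2-Q6 and H2-T23 rose by 3.27, 2.93, 2.80 and 1.58, and Nlrc5, a transactivator of class I genes, by 1.51 to 2.37 and 1.92 FPKM. H2 genes are near-identical in sequence, and how their reads were divided is uncertain. H2-Q7, H2-Q4 and H2-Q6 were among the class I genes with a control mean under 1 FPKM. Such genes entered the test through the libraries labelled Baf53b siRNA. Their part of the count and median that follow describes the data without adding support. Of 14 tested class I genes 8 rose and all 14 had a positive sign (median 1.55). With 1 library left out the counts were 6, 6, 6 and 7. Within the machinery that cuts and loads class I peptides, the parts that interferon replaces or adds rose: the immunoproteasome subunits Psmb8 (1.05 and 1.26 FPKM to 14.3 and 9.38 FPKM) and Psmb9 by 2.55 and 2.02, and the peptide transporter genes Tap1 and Tap2 by 1.91 and 1.20. The other 9 tested genes of this list did not pass, among them the general chaperone gene Canx (-0.13). Of 9 constitutive proteasome genes 0 passed in limma, with an unadjusted p under 0.05 in 0 (median 0.01); Psmb6, which Psmb9 replaces, was at 107 and 102 FPKM in the controls and 127 and 93.1 FPKM with Baf53b siRNA.

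**Figure D2:**
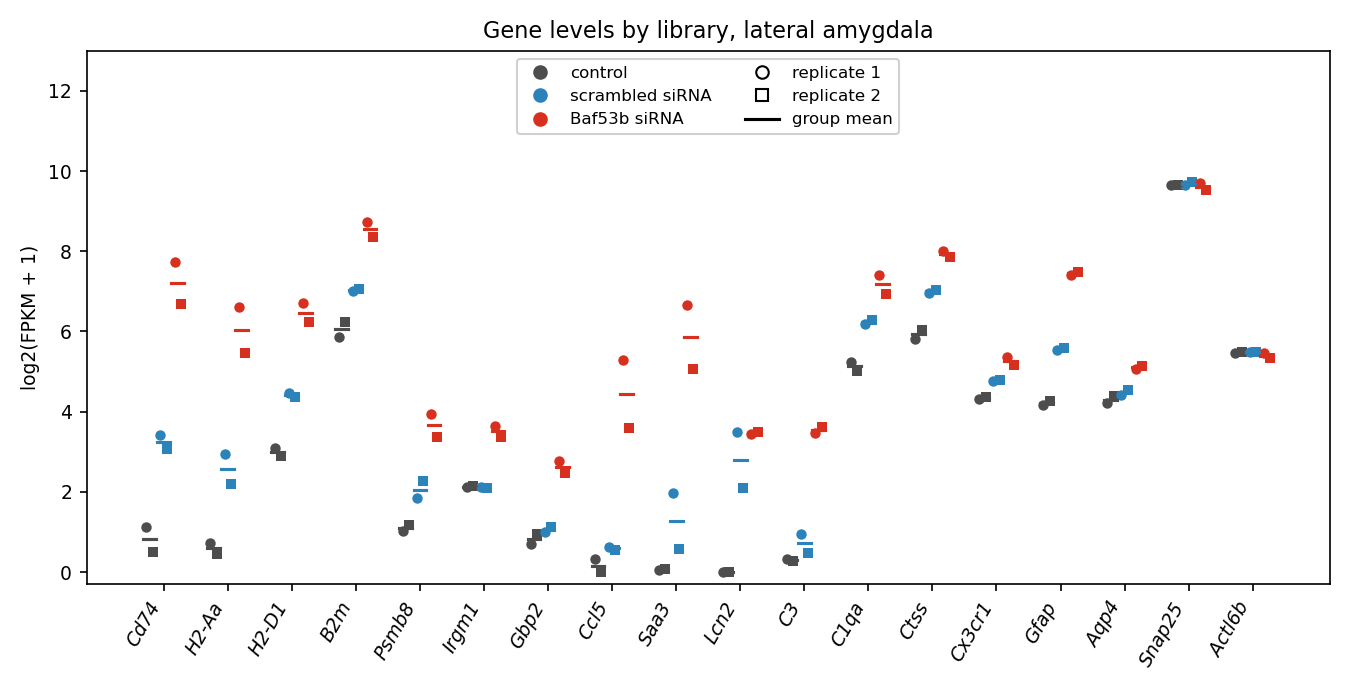
Level of 18 genes as log2(FPKM + 1) (vertical axis) in each of the 6 libraries, with control in grey, scrambled siRNA in blue, Baf53b siRNA in red, circles for replicate 1, squares for replicate 2 and bars for group means. From Cd74 to Aqp4 both red points lie above both grey points, whereas Snap25 (735 to 831 FPKM) and Actl6b (39.6 to 44.1 FPKM) lie close together.

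Genes induced by interferons formed the next group. Immunity-related GTPases and guanylate-binding proteins are interferon-induced GTPases that attack membranes around intracellular pathogens. All 5 tested GTPases of the first family rose: Tgtp2 by 2.18, Igtp by 2.04, Iigp1 by 1.85, Irgm2 by 1.42 and Irgm1 by 1.38. Irgm1 was at 3.32 and 3.42 FPKM in the controls, at 3.34 and 3.25 FPKM with scrambled siRNA, and at 11.5 and 9.38 FPKM with Baf53b siRNA. Its log2 difference from scrambled siRNA was 1.41 (limma adjusted p = 0.0329), and the control and scrambled siRNA libraries together ranged from 3.25 to 3.42 FPKM. Irgm1 was singled out for this, and it was the exception: in the other 188 of the 189 genes the mean of scrambled siRNA lay between those of control and Baf53b siRNA, against 3943 of the 14674 genes tested, a count that choosing genes by the gap between the other groups favours. Igtp, for example, held 0.780 and 0.782 FPKM in the controls, 1.16 and 1.48 FPKM with scrambled siRNA and 8.08 and 4.90 FPKM with Baf53b siRNA, with a limma adjusted p of 0.0664 against scrambled siRNA. Of 6 tested guanylate-binding protein genes 5 rose, Gbp6 by 1.88, Gbp2 by 1.80, Gbp3 by 1.65, Gbp7 by 1.18 and Gbp5 by 1.16. Gbp2 went from 0.623 and 0.931 FPKM to 5.87 and 4.54 FPKM. In all 5 of these genes, and in every GTPase gene of the first family except Irgm1, the control mean was under 1 FPKM. These genes entered the test through the libraries labelled Baf53b siRNA, so their counts describe the data without adding support. The counts with 1 library left out were 3, 2, 3 and 4 genes that rose in the first family and 3, 3, 1 and 3 in the second.

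Of 24 tested antiviral interferon-stimulated genes 12 rose, all 24 had a positive sign, and the median was 1.16. After leaving out 1 library they were 1, 4, 1 and 1, so most of these calls needed all 4 libraries. Bst2, a tether that holds budding virus at the membrane, went from 1.38 and 1.26 FPKM to 11.8 and 9.26 FPKM (2.31), and Oasl2 from 0.226 and 0.450 FPKM to 5.02 and 5.29 FPKM (2.21). The membrane protein gene Ifitm3, which blocks viral entry, went from 5.87 FPKM in both controls to 21.3 and 22.5 FPKM (1.74). The ubiquitin-like modifier gene Isg15 rose by 1.29, to 3.28 and 3.52 FPKM. Of 18 tested regulators and receptors 3 rose, among them the transcription factors Irf7 by 1.60 and Irf1 by 1.03 (3.60 and 3.46 FPKM to 8.80 and 7.69 FPKM). The other 15 did not pass, among them the interferon gamma receptor gene Ifngr1 at 0.78 (limma adjusted p = 0.0898). Fits that left out 1 library gave 0, 0, 0 and 1 regulators that rose. The interferon genes Ifng and Ifnb1 were listed at 0 in all control libraries; Ifnb1 was at 0 and Ifng at 0 and 0.0424 FPKM with Baf53b siRNA. Of 13 genes of the RNA interference machinery 0 passed in limma, with an unadjusted p under 0.05 in 0 (median 0.08); Ago2, the slicer that siRNA programmes, was at 9.15 and 7.52 FPKM in the controls and 8.62 and 8.17 FPKM with Baf53b siRNA.

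Promoter windows of genes that rose are shown for letters that interferon-activated factors are known to read, and for CCAAT, the box of a constitutive factor. The letters searched, on both strands of the 250 bases before each RefSeq gene start (GRCm38.p6), were GAAANNGAAA (the core of the interferon-stimulated response element), TTCNNNGAA (the gamma-activated site bound by STAT proteins) and CCAAT. There were 13122 such windows for 10141 of the genes tested, 162 of them for 141 of the genes that rose. GAAANNGAAA was in 2.51% of all windows and in 26 of 162 (16.0%) of those of genes that rose, TTCNNNGAA in 5.65% and in 19 (11.7%), and CCAAT in 35.1% and in 52 (32.1%). Matches of the first and second pattern shared bases in 10 windows. A match is a description of the letters and not a site shown to be bound. In the following windows of 80 bases, each written 5′ to 3′ along the gene's strand, capitals mark every match of the 3 patterns, on either strand. B2m, Isg15, Igtp and Saa3 hold the first pattern, 3 times in overlap in Isg15. Igtp and Irf1 hold the second, Irf1 also holds CCAAT, and H2-Aa holds CCAAT on the opposite strand.
B2m, GRCm38.p6 chr2:122147513-122147592, plus strand: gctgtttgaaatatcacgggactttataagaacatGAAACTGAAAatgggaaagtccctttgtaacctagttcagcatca
Isg15, chr4:156200846-156200925, minus strand: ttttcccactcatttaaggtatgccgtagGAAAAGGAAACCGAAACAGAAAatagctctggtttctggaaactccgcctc
Igtp, chr11:58199476-58199555, plus strand: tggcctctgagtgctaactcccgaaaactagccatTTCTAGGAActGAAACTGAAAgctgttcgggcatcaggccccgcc
Saa3, chr7:46715757-46715836, minus strand: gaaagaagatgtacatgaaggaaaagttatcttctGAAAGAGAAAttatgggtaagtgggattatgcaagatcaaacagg
Irf1, chr11:53769888-53769967, plus strand: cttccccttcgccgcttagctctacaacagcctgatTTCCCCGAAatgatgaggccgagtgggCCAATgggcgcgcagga
H2-Aa, chr17:34287830-34287909, minus strand: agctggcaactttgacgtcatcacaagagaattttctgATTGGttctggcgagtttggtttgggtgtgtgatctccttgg

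Genes of the phagocyte apparatus, from complement to lysosome, rose in part. Complement tags debris, synapses and microbes for uptake. Its recognition subunits C1qa, C1qb and C1qc, abundant in microglia, rose by 2.05, 1.90 and 1.88; C1qa was at 36.7 and 31.4 FPKM in the controls, 71.3 and 76.8 FPKM with scrambled siRNA and 170 and 122 FPKM with Baf53b siRNA (limma adjusted p = 0.257 against scrambled siRNA). C3, the central component, went from 0.242 and 0.206 FPKM to 9.99 and 11.2 FPKM (3.24, SE 0.20, limma adjusted p = 0.00195), and C4b from 3.11 and 2.58 FPKM to 27.4 and 26.2 FPKM (2.86). Reads of C4b can be shared with its copy C4a, which had 1.53 and did not pass. The inhibitor Serping1 and the receptor C3ar1 rose by 1.86 and 1.36, and the complement receptor chains Itgb2, Itgax and Itgam by 1.64, 1.49 and 1.06. In C3, Serping1, C3ar1 and Itgax the control mean was under 1 FPKM. They entered the test through the libraries labelled Baf53b siRNA, so their part of the count and median describes the data without adding support. In total 10 of 16 tested complement genes rose (median 1.51), and Cd55 (-0.12), which shields host cells, did not pass. Leaving out 1 library gave 6, 6, 5 and 7.

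Receptors for antibody and their signalling partners carry the next step of uptake. Of 10 tested genes 8 rose (median 1.47), among them Tyrobp, an adaptor of microglial receptors, by 1.77, Fcgr4 by 1.61, the inhibitory receptor gene Fcgr2b by 1.58, Fcgr1 by 1.52, Fcgr3 by 1.49, Fcer1g by 1.45, and the kinase Lyn by 1.13. Tyrobp was at 26.4 and 23.2 FPKM in the controls and at 96.3 and 78.7 FPKM with Baf53b siRNA. With 1 library left out the counts were 3, 4, 1 and 4 genes that rose. The oxidase that phagocytes use to make superoxide had 4 of 6 tested subunits higher. Its catalytic subunit Cybb went from 0.0181 and 0.00814 FPKM to 3.47 and 2.98 FPKM (2.06), and Rac2 and Ncf1 rose by 1.61 and 1.35. The counts with 1 library left out were 2, 1, 1 and 2 subunits that rose. Among lysosomal proteases Ctss, which trims the invariant chain for class II loading, went from 55.5 and 64.5 FPKM to 256 and 232 FPKM (2.01, SE 0.15, limma adjusted p = 0.00294). Ctsh, Ctsc and Ctsz rose by 1.75, 1.69 and 1.61, and the inhibitor Cst7 by 2.09, while 9 other tested cathepsins and cystatins did not pass, with Ctsd at 1.03 (limma adjusted p = 0.102). After leaving out 1 library they were 4, 4, 2 and 4 cathepsins and cystatins that rose. Lyz2, the lysozyme of macrophages and monocytes, went from 2.50 and 1.42 FPKM to 27.1 and 59.6 FPKM (3.83).

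Genes of the whole myeloid lineage rose in large number. Most genes that mark microglia at rest leaned higher as well, while few of them passed the test. Of 22 tested pan-myeloid genes 16 rose, all 22 had a positive sign, and the median was 1.54. Among them were Mpeg1, a pore-forming protein of macrophages (6.48 and 6.99 FPKM to 32.7 and 31.1 FPKM, a rise of 2.09), Aif1 (1.66), the lineage factor Spi1 (1.52) and Cd68 (1.21). Fits that left out 1 library gave 10, 10, 6 and 9. Csf1r, the receptor that keeps microglia alive, was at 31.8 and 25.2 FPKM in the controls and at 73.0 and 53.2 FPKM with Baf53b siRNA, a difference of 1.11 that did not pass (limma adjusted p = 0.0764). Of 20 homeostatic microglia markers 19 had a positive sign, and the median was 0.54. In limma 12 were higher at an unadjusted p under 0.05, where 4.83% of all genes tested were. Both Baf53b siRNA libraries lay above both controls in 17 and below in 1, where 16.8% and 7.1% of all genes tested did. At the adjusted threshold 3 of these markers rose, among them P2ry6 by 1.13 and Cx3cr1 by 0.92. None of the 3 passed when any 1 of the 4 libraries was left out. Cx3cr1, the receptor for a neuronal chemokine, stood at 19.0 and 19.5 FPKM in the controls, 26.1 and 26.7 FPKM with scrambled siRNA and 40.0 and 35.0 FPKM with Baf53b siRNA (limma adjusted p = 0.622 against scrambled siRNA). P2ry12, a purine receptor that falls in activated microglia, was at 49.1 and 44.0 FPKM in the controls and 59.1 and 59.9 FPKM with Baf53b siRNA (0.35, limma adjusted p = 0.724). The marker Tmem119 was at 10.6 and 7.99 against 23.6 and 14.9 FPKM (0.95, limma adjusted p = 0.245). The difference between these lists was not tested. Of 28 tested genes of disease-associated microglia 9 rose (median 0.85), among them Cd52 by 3.61, Cst7, also counted with the cathepsins and cystatins, by 2.09 and Trem2, a lipid receptor, by 1.56. Leaving out 1 library gave 6, 5, 6 and 7.

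Markers of cells that enter from the blood were near 0 in part and higher in part. Of 37 listed T and NK cell genes 31 were below the filter, and 1 of the 6 tested rose, the cytokine receptor chain Il2rg (1.90). The T cell receptor partner genes Cd3e and Cd3g were listed at 0 in both controls and stood at 0.673 and 0.332 FPKM and at 2.43 and 1.26 FPKM with Baf53b siRNA; the NK marker Ncr1 stood at 0.202 and 0.0682 FPKM there. Of the B cell markers, Cd79a was at 0.0653 and 0.142 FPKM in the controls and 0.731 and 0.0343 FPKM with Baf53b siRNA. Of 3 tested B cell genes 1 rose, the constant chain gene Ighm, by 1.58, and with 1 library left out 0, 0, 0 and 2 rose. Ighm was at 4.01 and 3.58 FPKM in the controls and 16.7 and 10.6 FPKM with Baf53b siRNA, and the variable segments Igkv16-104 and Igkv1-117, listed at 0 in control, were at 6.85 and 3.34 FPKM and at 2.37 and 2.14 FPKM. The light chain gene Igkc was at 0.122 and 0.0944 FPKM against 38.1 and 3.26 FPKM and did not pass (limma adjusted p = 0.268), its 2 Baf53b siRNA libraries being far apart. Of 3 tested neutrophil genes 2 rose, Csf3r by 1.39 and Lcn2 by 3.46 (median 1.48), and with 1 library left out 0, 1, 1 and 1 did. The neutrophil marker Ly6g was listed at 0 in all 4 libraries and S100a9 at 0 in control and 0.628 and 1.02 FPKM with Baf53b siRNA. Of 10 tested genes of border macrophages and monocytes 4 rose, Lyz2 by 3.83, S100a4 by 2.24, Plac8 by 1.64 and Ms4a6c by 1.41, all 10 had a positive sign (median 1.02), and with 1 library left out 2, 2, 2 and 2 rose. The monocyte receptor gene Ccr2 was at 0.0617 and 0.0984 FPKM against 1.54 and 1.63 FPKM, and Mrc1 and Cd163, markers of macrophages at vessels and meninges, were highest in replicate 2 of Baf53b siRNA, at 0.421 and 0.0803 FPKM. Summed levels were 355 and 380 against 416 and 332 FPKM for the T and NK list, most of it the neuronal gene Thy1, 33.1 and 33.8 against 93.2 and 46.3 FPKM for the B cell list, 3.87 and 3.60 against 18.2 and 24.1 FPKM for neutrophils and 35.6 and 35.8 against 113 and 156 FPKM for border macrophages and monocytes. With scrambled siRNA the neutrophil sum was 16.7 and 10.8 FPKM. Lcn2, which astrocytes also make, held 9.88 and 10.2 FPKM of the neutrophil sum with Baf53b siRNA. The part of the cells of these lists in the immune genes above was not tested.

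Among signals between immune cells, 4 of 14 tested chemokine genes rose. Ccl5, a chemoattractant of T cells and monocytes, went from 0.243 and 0 FPKM to 38.2 and 11.0 FPKM (4.28, limma adjusted p = 0.0103), Ccl12 rose by 2.58, Cxcl10, an interferon-induced attractant listed at 0 in control, by 2.02 to 4.94 and 1.78 FPKM, and Cxcl16 by 2.00. In all 4 the control mean was under 1 FPKM, and replicate 1 of Baf53b siRNA was the higher, by between 1.44 and 3.49 times. With 1 library left out the counts were 1, 1, 3 and 6 chemokine genes that rose. Cxcl13, a B cell attractant, was listed at 0 in both controls and at 54.5 and 8.04 FPKM with Baf53b siRNA, and did not pass (limma adjusted p = 0.0703). Cxcl14 (-0.14), a chemokine that neurons also make, did not pass. Of 22 tested cytokine and receptor genes 7 rose, all of them receptors: Il2rg, Tnfrsf1b (1.33), Il10ra (1.20), Osmr (1.12), Csf2rb (1.11), Tgfbr2 (1.1) and Tnfrsf1a (1.07). In Il2rg, Tnfrsf1b, Osmr and Csf2rb the control mean was under 1 FPKM. They entered the test through the libraries labelled Baf53b siRNA, so their part of the count describes the data without adding support. The counts with 1 library left out were 1, 1, 0 and 1. The cytokine genes Tnf, Il1b and Il6 were below the filter. Their highest levels in Baf53b siRNA were 0.162, 1.09 and 0.200 FPKM, against 0, 0.213 and 0.289 FPKM in the controls.

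Astrocytes respond to injury and inflammation with new filaments and secreted defence proteins while they keep clearing glutamate and potassium. Gfap (ENSMUSG00000020932.14, chromosome 11, 102887336 to 102900912, minus strand), their main intermediate filament, went from 16.9 and 18.3 FPKM to 170 and 178 FPKM, with 45.1 and 47.3 FPKM with scrambled siRNA. It rose by 3.23 (SE 0.13, limma adjusted p = 0.000522), the smallest adjusted p of all genes tested, and by 1.89 from scrambled siRNA (limma adjusted p = 0.0107). The filament gene Vim was at 12 and 14.6 FPKM in the controls, 16.0 and 12.2 FPKM with scrambled siRNA and 40.4 and 56.4 FPKM with Baf53b siRNA. It rose by 1.78 from control and differed by 1.70 from scrambled siRNA (limma adjusted p = 0.0480). The protease inhibitor Serpina3n (22.3 and 25.2 FPKM to 55.5 and 63.2 FPKM) and the copper protein Cp rose by 1.28 and 1.4. Of 27 tested reactive astrocyte genes 16 rose (median 1.4), 9 of which also stand in the antigen presentation, interferon, complement and chemokine lists (C3, C4b, Serping1, Cxcl10, Gbp2, H2-D1, H2-T23, Iigp1 and Psmb8). After leaving out 1 library they were 8, 10, 7 and 10 reactive astrocyte genes that rose. Of 25 homeostatic astrocyte genes 1 rose, the water channel Aqp4, by 0.80 (17.6 and 19.8 FPKM to 32.7 and 34.1 FPKM), with a median of 0.07, and Aqp4 did not pass when any 1 of the 4 libraries was left out. The glutamate transporter gene Slc1a2 was at 213 and 250 FPKM in the controls and 237 and 247 FPKM with Baf53b siRNA.

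Acute phase proteins are secreted in inflammation, above all by the liver and also by glia and macrophages. Saa3 was at 0.0340 and 0.0566 FPKM in the controls, 2.92 and 0.482 FPKM with scrambled siRNA and 99.3 and 32.4 FPKM with Baf53b siRNA, and rose by 5.79 (SE 0.58, limma adjusted p = 0.00696). Lcn2, an iron-sequestering protein of astrocytes and neutrophils, was listed at 0 in both controls and stood at 10.2 and 3.24 FPKM with scrambled siRNA and at 9.88 and 10.2 FPKM with Baf53b siRNA. It rose by 3.46 from control (limma adjusted p = 0.0106), and its difference from scrambled siRNA was 0.68 (limma adjusted p = 1). The siRNA groups overlapped in this gene and did not overlap in Saa3, whose difference from scrambled siRNA was 4.59 (limma adjusted p = 0.0480).

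**Figure D3:**
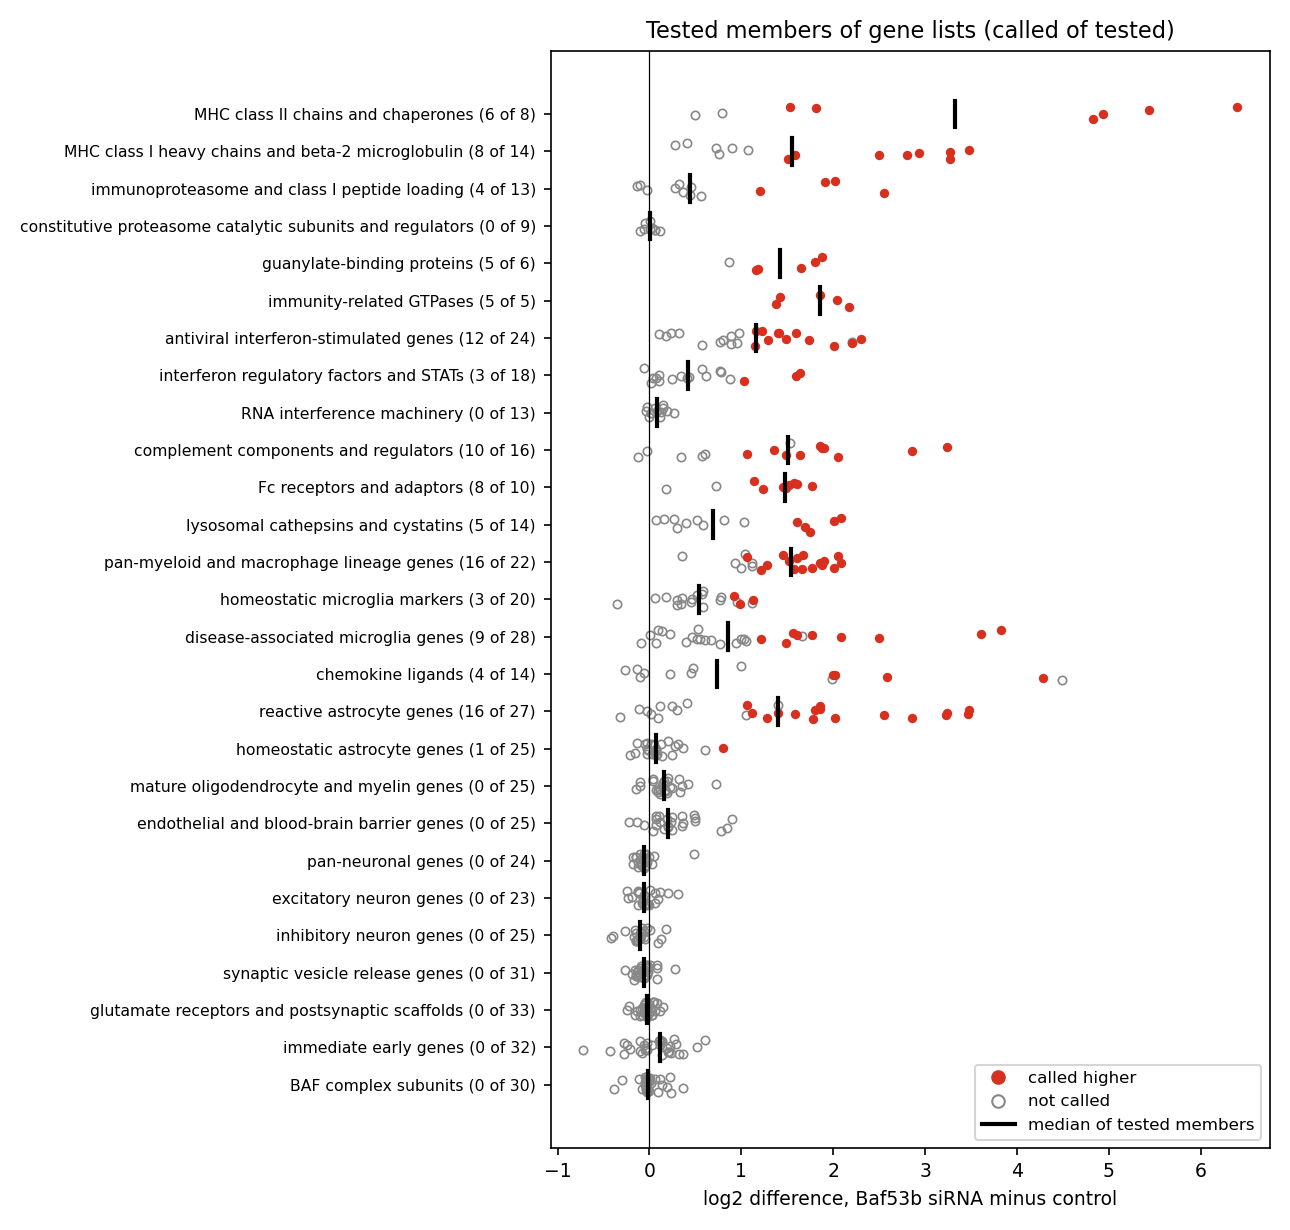
Log2 difference between Baf53b siRNA and control (horizontal axis) for the tested members of 27 gene lists, with members that rose in red, the others as open grey circles and the median as a black bar; the numbers after each name are members that rose of members tested. Class II, class I and GTPase lists lie to the right, and neuronal and BAF lists lie around 0.

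Among other glia and vessels few genes passed the test. Of 25 tested myelin genes 0 passed in limma and 2 had a higher level at an unadjusted p under 0.05 (median 0.16); Mbp was at 392 and 492 FPKM in the controls and 507 and 477 FPKM with Baf53b siRNA, and Trf, the iron carrier made by oligodendrocytes, at 37.6 and 46.5 against 67.5 and 72.6 FPKM (0.73, limma adjusted p = 0.124). Of 16 tested genes of oligodendrocyte precursors 0 passed in limma and 3 were higher at an unadjusted p under 0.05 (median 0.15). Of 25 endothelial genes 0 passed in limma and 5 were higher at an unadjusted p under 0.05 (median 0.20), with Ly6a at 12.3 and 10.8 against 22.6 and 20.6 FPKM (0.85, limma adjusted p = 0.0687). Icam1, an adhesion molecule through which leukocytes cross vessel walls, rose by 1.14, from 0.580 and 0.258 FPKM to 2.28 and 1.96 FPKM, and did not pass when any 1 of the 4 libraries was left out. Of 9 tested genes of choroid plexus and ependyma 0 passed in limma and 1 was lower at an unadjusted p under 0.05 (median -0.36): Ccdc153, a gene of motile cilia, at 4.14 and 7.33 FPKM in the controls and 0.406 and 2.85 FPKM with Baf53b siRNA (-1.49, limma adjusted p = 0.431). The median of the choroid and ependymal list was -0.06 without control replicate 2 and 0.01 over its genes with a mean of at least 5 FPKM.

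**Figure D4:**
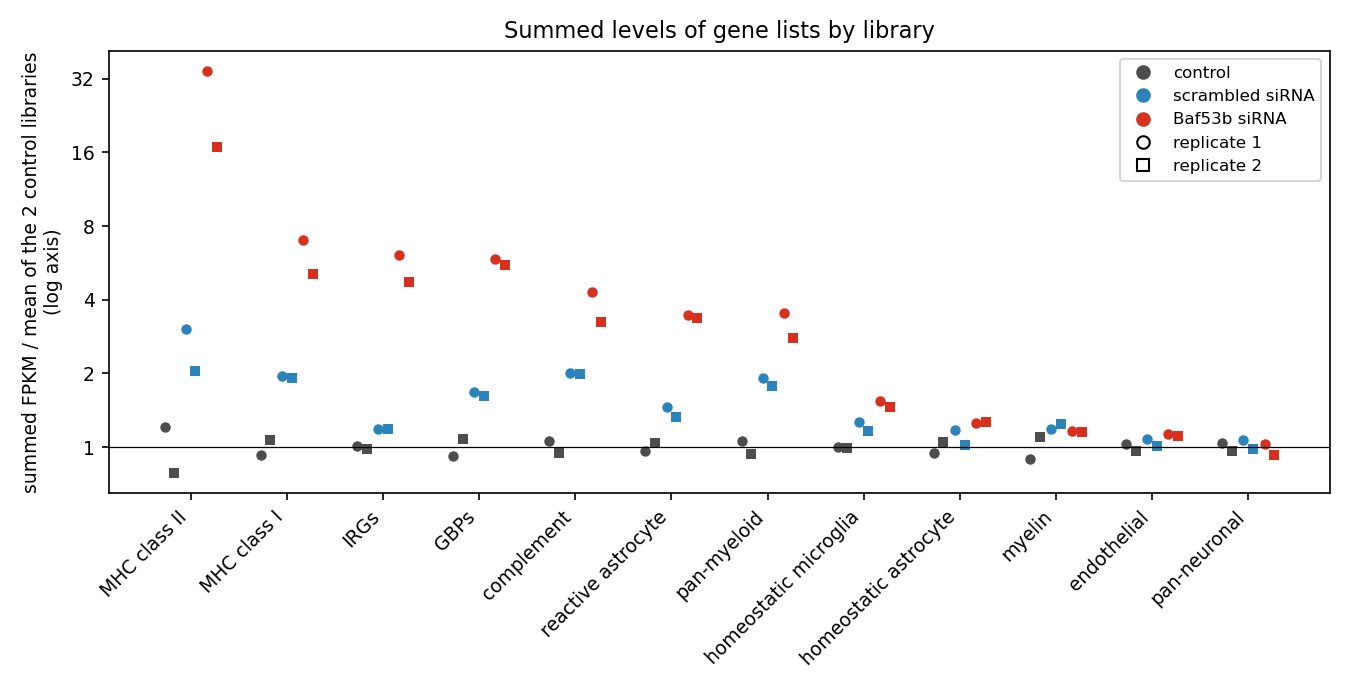
Summed FPKM of 12 gene lists in each library divided by the mean of the 2 control libraries (vertical log axis), with control in grey, scrambled siRNA in blue, Baf53b siRNA in red, circles for replicate 1 and squares for replicate 2; IRGs are immunity-related GTPases and GBPs guanylate-binding proteins. Class II sums (445 and 218 FPKM against 15.7 and 10.1 FPKM) lie farthest from control, and pan-neuronal sums (6595 and 5959 FPKM against 6632 and 6167 FPKM) lie near the control line.

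In the neuronal lists no single gene showed a difference detectable against the spread of the libraries. Of 24 tested pan-neuronal genes 0 passed in limma, with an unadjusted p under 0.05 in 0 (median -0.06), and their summed level was 6632 and 6167 FPKM in the controls and 6595 and 5959 FPKM with Baf53b siRNA. Snap25 was at 798 and 805 FPKM in the controls and 831 and 735 FPKM with Baf53b siRNA, with a 95% interval of the difference of -0.44 to 0.36. The medians were -0.06 for 23 excitatory and -0.10 for 25 inhibitory neuron genes, again with 0 that passed in limma; at an unadjusted p under 0.05 there were 0 and 1, the latter lower. Gad2, a GABA-synthesizing enzyme, was at 29.1 and 31.6 FPKM in the controls and 26.5 and 27.3 FPKM with Baf53b siRNA (-0.17), and the interneuron marker Pvalb at 6.49 and 8.80 against 6.08 and 6.22 FPKM (-0.26); in both genes the groups did not overlap. Both libraries labelled Baf53b siRNA lay below both controls in 9 of the 25 inhibitory genes and above in 1, where 7.1% and 16.8% of all genes tested did. The sign was negative in 21 pan-neuronal, 16 excitatory and 21 inhibitory genes and positive in 3, 7 and 4, where 60.7% of all genes tested were positive. The pan-neuronal median ranged from -0.15 to 0.02 over the 17 alternative settings. This lean of the signs was not tested. Of 20 tested neuropeptide genes 0 passed in limma and 2 were lower at an unadjusted p under 0.05, Cort and Crh. Crh, the stress peptide of the amygdala, was at 1.58 and 1.71 FPKM in the controls and 0.728 and 1.19 FPKM with Baf53b siRNA (-0.44, limma adjusted p = 0.919).

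Genes of the synapse and of memory-related signalling gave 0 calls in limma. The medians were -0.03 over 33 glutamate receptor and scaffold genes, -0.03 over 16 GABA-A receptor genes, -0.06 over 31 vesicle release genes, -0.02 over 32 voltage-gated channels and -0.01 over 32 regulators of dendrites and spine actin. In these 5 lists 0 genes had an unadjusted p under 0.05. In the same order, 22, 11, 26, 20 and 19 genes had a negative sign and 11, 5, 5, 12 and 13 a positive one. The plasticity factor gene Bdnf was at 3.47 and 4.36 FPKM in the controls and 3.32 and 2.75 FPKM with Baf53b siRNA (-0.28, limma adjusted p = 1). Among 32 tested immediate early genes, which report recent neuronal activity, 0 passed in limma and at an unadjusted p under 0.05 there were 2 higher and 1 lower (median 0.11). Fos was at 3.42 and 2.71 FPKM against 5.21 and 4.41 FPKM (0.52, limma adjusted p = 0.636), and Nr4a2, a nuclear receptor tied to memory, at 2.37 and 3.28 against 0.991 and 1.67 FPKM (-0.72, limma adjusted p = 0.808). In the central amygdala and striatal list 1 of 17 tested genes rose, the kinase gene Prkcd (3.14 and 2.46 FPKM to 6.28 and 8.93 FPKM, 1.17), which cells other than neurons also make. It did not pass when any 1 of the 4 libraries was left out.

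The BAF complex itself gave 0 calls in limma among 30 subunits, with 1 lower at an unadjusted p under 0.05 (median -0.02). That subunit was Dpf3, a reader of modified histones in neurons, at 2.02 and 2.24 FPKM in the controls and 1.47 and 1.32 FPKM with Baf53b siRNA (-0.39, limma adjusted p = 0.965). Actl6a, the paralog of the target in dividing cells, was at 5.59 and 3.65 FPKM in the controls and 6.34 and 5.98 FPKM with Baf53b siRNA (0.37, limma adjusted p = 1). Of 31 tested histone deacetylase, acetyltransferase and DNA methylation genes 0 passed in limma, with an unadjusted p under 0.05 in 0 (median 0.06).

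Genes called lower numbered 0. The smallest adjusted p of a lower gene was 0.0862 in limma, for the processed pseudogene Gm13797 (named after its values were seen), at 10.7 and 2.28 FPKM in the controls and listed at 0 in the other 4 libraries. With pseudogenes and predicted genes set aside, the first 10 by unadjusted p of those with a difference below -0.3 included Kbtbd4, an adaptor of a ubiquitin ligase, at 11.0 and 13.2 FPKM in the controls and 5.65 and 8.25 FPKM with Baf53b siRNA (-0.74, limma adjusted p = 0.256), and the homeobox gene Emx2 at 4.68 and 5.47 against 3.12 and 2.97 FPKM (-0.58, limma adjusted p = 0.318). Nckap5 (-0.53), Mylpf (-1.17), the cilium gene Tmem107 (-0.62), Kcng2 (-0.52), Ccdc153 and Nr4a2 were also among them. Rny1, a short Y RNA that selection of messenger RNA does not aim at, was at 128 and 12.4 FPKM in the controls and listed at 0 in both Baf53b siRNA libraries (limma adjusted p = 0.668). Msmo1, an enzyme of cholesterol synthesis, was at 35.8 and 43.0 against 31.6 and 27.1 FPKM (-0.41, limma adjusted p = 0.760). In the cholesterol list 2 of 24 tested genes rose, the apolipoprotein gene Apoc1 (4.21 and 5.83 FPKM to 12.8 and 17 FPKM, 1.4) and the cholesterol exporter gene Abca1 (1.12). With 1 library left out 0, 1, 0 and 0 of this list rose. The synthesis genes Hmgcs1 (-0.27), Sqle (-0.28) and Dhcr7 (-0.31) did not pass.

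Housekeeping lists set the scale of these differences. Of 38 cytosolic ribosomal protein genes 0 passed in limma and 1 was higher at an unadjusted p under 0.05, yet 37 had a positive sign (median 0.22), where 60.7% of all genes tested did. Of 13 mitochondrially encoded messenger RNAs 0 passed in limma, 0 had an unadjusted p under 0.05, and all 13 had a negative sign (median -0.24), which turned to a median of 0.13 without control replicate 2. Control replicate 2 held 29.5% of its FPKM in mitochondrial genes, the highest share of the 6 libraries. Of 35 nuclear-encoded oxidative phosphorylation genes 0 passed in limma, with an unadjusted p under 0.05 in 0 (median 0.00). In the heat shock list 1 of 18 tested genes rose, the haem-degrading enzyme gene Hmox1 (1.20 and 1.05 FPKM to 3.10 and 4.41 FPKM, 1.15), which did not pass when any 1 of the 4 libraries was left out.

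The genes that rose did not scale together between the libraries labelled Baf53b siRNA. In 135 of 189 replicate 1 was the higher (71.4%, against 60.3% of all genes tested), and 12 genes differed by more than 2-fold between the replicates. The 6 class II genes that rose were between 1.26 and 2.21 times as high in replicate 1 as in replicate 2, with a median of 2.11. The 16 pan-myeloid genes had a median of 1.25, the 16 reactive astrocyte genes 1.01 and the 12 antiviral genes 0.950. Lyz2 went the other way at 0.455, and so did Mcpt2, a mast cell protease gene, at 1.98 and 5.88 FPKM from 0 and 0.0898 FPKM in the controls (2.12, limma adjusted p = 0.0499). With 2 libraries these ratios carry no error of their own.

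Of the 189 genes 121 were in a list and 68 in none, and 180 were protein-coding. A gene can stand in several lists, so the counts of different lists share genes and are not separate results. Chromosome 17, which carries the H2 region, held 26 of them (13.8%, against 4.64% of genes tested), of which 12 were H2 genes. C920009B18Rik, singled out after its values were seen and annotated as a transcribed unprocessed pseudogene on chromosome 10, was at 0.221 and 0.00617 FPKM in the controls, 0.209 and 0.182 FPKM with scrambled siRNA and 31.7 and 18.8 FPKM with Baf53b siRNA, a rise of 4.52 from control (limma adjusted p = 0.00129) and a difference of 4.41 from scrambled siRNA (limma adjusted p = 0.00762). Its deposited bounds with Baf53b siRNA ran from 0 to 113 and from 0 to 70.8 FPKM, so these levels are almost undetermined despite the small p. Read as counting error alone, these bounds equal about 1 fragment in each library, a figure that measures their width and is no count of reads. C920009B18Rik was 1 of 2 genes that rose for which this figure was under 10 in both Baf53b siRNA libraries. Other genes outside the lists, named after their values were seen, were Lag3, a class II binding receptor (3.40 and 2.44 FPKM to 18.3 and 13.7 FPKM, 2.12), the actin-capping protein gene Capg (1.79), the antiviral deaminase gene Apobec3 (1.61), the metal transporter gene Slc11a1 of phagosomes (1.86), the progranulin gene Grn (23.3 and 18.5 FPKM to 47.5 and 42.7 FPKM, 1.08), the mitochondrial carrier gene Ucp2 (1.35) and the galectin genes Lgals9 and Lgals1 (1.17 and 1.02). Near the filter of 1 FPKM, the T cell gene Cd3g (mean 0.922 FPKM), the chemokine gene Cxcl9 (0.948 FPKM) and the complement factor gene Cfb (0.965 FPKM) fell just outside, and Spp1 (1.02 FPKM), Ms4a6c (1.04 FPKM) and Csf2rb (1.04 FPKM) just inside.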

How the data were processed

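RNA of 6 lateral amygdala libraries was sequenced in pairs of reads after oligo-dT selection, per the labels' protocols, and the groups follow the sample titles. Each library has 1 table, deposited by the authors, with the FPKM of every gene and the lower and upper bounds of each FPKM. Per the submitters' processing notes, the tools were bcl2fastq (version 2.19.1.403), TopHat2 (version 2.1.1) and Cufflinks (version 2.2.1), on the genome build mm10. Which annotation and settings were used is not given in the sources used here. FPKM are relative values, so a gain in abundant RNA lowers the rest, and the deposited tables hold no counts. Fragments per library were estimated from the width of the deposited bounds.

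Rows of 48 gene IDs with several rows were summed, and 92 spike-in rows were left out. Gene types came from GENCODE M21, which matched 50160 of 50383 gene IDs. Of the genes with a mean of at least 1 FPKM over the 4 libraries compared, small RNA genes and failed estimates were not tested. Small RNA genes here are those of the annotated types miRNA, snRNA, snoRNA, scaRNA and rRNA. The types misc_RNA, to which Rny1 belongs, and Mt_rRNA were not set aside. Values were log2(FPKM + 1). limma 3.58.1 in R 4.3.3 (empirical Bayes with trend, two-sided) was fitted to all 6 libraries with 3 group means, so that the scrambled siRNA libraries share in the estimate of spread, and p-values were adjusted by Benjamini-Hochberg over all genes tested at 0.05. The script was tested on simulated data. Alternatives were 3 other scalings, a pseudocount of 0.1, other filters, small RNA genes kept, 4 libraries only, a replicate block, no trend and each library left out.

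The genes compared and the 63 gene lists were chosen with earlier results of these data known, so no list has a test. Named genes were Actl6b and Actl6a, per direction the 15 largest differences that passed without overlap of the groups (filled to 10 by the smallest p among differences of at least 0.3), per list up to 6 members that passed and the 3 most abundant, and defining cell type markers. Predicted genes and pseudogenes took no place. Of 172 genes named, 53 fall outside this rule and were chosen after their values were seen. Some genes that the rule names are not reported here.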

Additional observations from a re-analysis of the deposited data

Results flagged for a closer look

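Synthetic spike-in RNA, which no comparison above uses, took a larger share of the FPKM sum in both libraries labelled Baf53b siRNA than in either control. The share was 0.755% in replicate 1 and 0.128% in replicate 2 of Baf53b siRNA, against 0.0191% and 0.0195% in control and 0.0340% and 0.102% in scrambled siRNA. Of the 92 spike-in sequences, 60 and 50 were above 0 in Baf53b siRNA and 31 and 28 in control. Whether spike-in RNA was added to these samples is not given in the sources used here, and its part in the gene differences was not tested.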

How the results depend on the processing

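The count of 189 genes that rose was within 1.5 times of that under every setting except the absence of a filter, the filter at 5 FPKM and the removal of 1 of the 4 libraries compared. It was 54 without a filter on low values, of which 29 were among the 189, and 78 at a mean of at least 5 FPKM, where 86 of the 189 were tested and 78 passed. With 1 library left out, where the lone sample of a group is assumed to vary like the others, the number called ranged from 49 to 150, the number higher from 49 to 149 and the number lower from 0 to 10. Of the 189, 64 passed again without control replicate 1, 69 without control replicate 2, 43 without Baf53b siRNA replicate 1 and 76 without Baf53b siRNA replicate 2. The number lower was 0 as reported, 1 with a pseudocount of 0.1, 5 with small RNA genes kept, 1 with only the 4 libraries compared and 1 without trend. The cause of these changes was not tested, other than that fewer genes or samples entered some fits. Removing control replicate 1 moved the median of all genes from 0.04 to 0.10.

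With the replicate number as a block, 193 genes were called, 165 of them among the 189. Deviations of libraries with the same number correlated by 0.181 between control and Baf53b siRNA, 0.407 between control and scrambled siRNA and 0.374 between scrambled siRNA and Baf53b siRNA. With 2 numbers and no label of a shared animal or day, the libraries share only a number.

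Some genes that did not pass lay near 0 and changed sign. Under quantile, median-ratio and mitochondria-free scaling, in that order, Ago2 was at -0.065, -0.032 and -0.057 and Slc17a7 at -0.028, -0.052 and -0.080, and under the last Psmb6 was at -0.018 and Slc1a2 at -0.012. With 1 library left out the log2 difference ranged from -0.11 to 0.14 for Ago2, -0.12 to 0.066 for Gad1, -0.16 to 0.29 for Psmb6, -0.23 to 0.23 for Slc17a7, -0.045 to 0.18 for Slc1a2, -0.13 to 0.051 for Snap25 and -0.22 to 0.059 for Thy1. Actl6b kept a negative sign and did not pass in any of the 17 settings. FPKM without counts limit what can be said of genes near 1 FPKM, and 2 libraries a group limit all of it.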
